A study of Mus musculus with 165 samples.

Results

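The comparison described here sets brains of male mice aged 28 months against brains of male mice aged 3 months. Its members were chosen by label, and they are 33 of the 82 brain libraries, 18 from 28 months and 15 from 3 months. The whole series holds 165 libraries of brain and liver. All mice were of the inbred strain C57BL/6J/Ukj, kept for ageing with no treatment, and each library was made from polyadenylated RNA of 1 mouse. The labels name the tissue as brain and give no region. Both ages were spread over 3 library preparations (preps), with 5 libraries in each prep at 3 months and 7, 5 and 6 at 28 months, and prep was a term of the fit. Per the series' design text the other ages were 9, 15 and 24 months, and their libraries helped to estimate the spread between mice in the fit of all 5 ages.

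The mammalian brain makes few new neurons after early life, and its glial cells turn over slowly. Microglia are its resident immune cells. Astrocytes support neurons and seal the blood vessels, and oligodendrocyte precursors divide and mature into the cells that make myelin. In ageing rodent brains the genes of microglia, complement, antigen presentation and the interferon response are known to be more active, and the genes of precursor cells less so.

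Total counts per library ran from 30.4 to 69.9 M at 3 months and from 22.3 to 55.0 M at 28 months, apart from 28 months replicate 15, which held 11.5 M. That library stood apart in other ways too. Its mean correlation with the other brains was 0.871, against at least 0.983 for the other 32 libraries. Its levels in CPM, counts scaled to a common library size, fell by 0.567 on the log2 scale per doubling of exon length relative to its age group, where the other slopes lay between -0.0737 and 0.130. Each result is therefore given with it, and without it where that matters. Markers of neurons, astrocytes, oligodendrocytes, microglia and endothelium were present at both ages. In CPM of all counts, with no further scaling, and without replicate 15, Snap25, a synaptic fusion protein gene, was at least 1926.5 CPM, and the microglial receptor gene Cx3cr1 at least 50.4 CPM. On the same scale the liver gene Alb was at most 0.120 CPM at 3 months and reached 18.8 CPM in a single 28-month library. All other CPM are scaled by edgeR's TMM factors, which were 0.761 in replicate 15 and 0.982 to 1.03 in the other 32 libraries. A score of clock output genes, high when Dbp and its partners are high, had a median of -0.14 at 3 months and 0.44 at 28 months. The time of day of tissue collection is not in the labels, so age and time of day cannot be told apart for genes with a daily rhythm.

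With edgeR's quasi-likelihood test and Benjamini-Hochberg adjusted p under 0.05, 3054 of 18711 genes were higher at 28 months (16.3%) and 2237 were lower (12.0%). Without replicate 15 these were 2924 (15.6%) and 2571 genes (13.7%), and the share called in either direction went from 28.3% to 29.4%. In all, 4480 genes (23.9%) passed in the same direction in both fits, 2427 higher (13.0%) and 2053 lower (11.0%), while 811 passed only with that library and 1015 only without it. Most differences were small, with a median absolute log2 fold change of 0.33 among the genes called. Groups that did not overlap were rarer. In 36 genes (0.192%) every 28-month brain lay above every 3-month brain, and in 10 (0.0534%) every one lay below. Without replicate 15 these were 69 (0.369%) and 15 genes (0.0802%). Of 2642 long non-coding genes tested 619 were higher (23.4%) and 188 lower (7.12%). Without replicate 15 these were 608 (23%) and 211 (8.00%) of 2639. Called genes also differed in length. The median exon length was 2960.5 bases for higher genes, 5029.5 for lower genes and 3850 for all tested genes. Without replicate 15 these medians were 3469, 4833.5 and 3851 bases, so a trend with length remained. Its part in the counts was not tested. Since this is bulk RNA, fewer cells of a type and less RNA per cell cannot be told apart in any result below.

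C4b carried the smallest p-value of the comparison. It encodes complement component 4 and lies on chromosome 17 (34728380 to 34743882, minus strand, GRCm38). Its level was lowest at 26.0, with a median of 37.5 and a highest value of 65.1 CPM, at 3 months. At 28 months the lowest, median and highest values were 149, 205 and 317 CPM. All 18 old brains lay above all 15 young ones, and the log2 fold change was 2.32 ± 0.10 (SE, adjusted p 5.7e-32). Reads of C4b and its near-identical copy C4a may have been split by the counting, so the level is uncertain. Gpr17 marks precursors that are about to become oligodendrocytes, and it was the strongest decrease by p-value. It ranged from 56.3 to 84.0 CPM (median 65.2) at 3 months and from 8.04 to 35.3 CPM (median 20.4) at 28 months, again without overlap (log2 fold change -1.62 ± 0.10, adjusted p 6.1e-23). Gpr17 overlaps Lims2 on the opposite strand (chromosome 18, 31942997 to 31949636 for Gpr17). Lims2 itself changed by -0.25 ± 0.06.

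Among genes averaging at least 10 CPM and named by rule, the next smallest p-values in the upward direction were those of Cd68, Lyz2, Pcdhb9 (described with the protocadherins), Mpeg1, Zc3hav1, Creg1 and Gfap. Genes of lower level, such as Clec7a, had p-values as small. Cd68 is a lysosomal membrane protein of macrophages, Lyz2 their lysozyme, and Mpeg1 their pore-forming protein. Cd68 ranged from 5.91 to 8.94 CPM (median 7.53) at 3 months and from 10.6 to 17.2 CPM (median 12.3) at 28 months. Lyz2 ranged from 3.93 to 11.5 CPM (median 7.07) and from 12.4 to 37.6 CPM (median 18.6). Neither gene overlapped between the ages. Mpeg1 changed by 0.61 ± 0.06, Creg1, a secreted glycoprotein of the endolysosomal system, of 0.32 ± 0.03, and the antiviral zinc finger protein gene Zc3hav1 of 0.61 ± 0.06, with adjusted p of at most 1.5e-12.

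In the downward direction, the largest fold change among genes that averaged at least 1 CPM and moved alike in both fits and in each prep was that of the long non-coding RNA 9630013A20Rik (chromosome 14, 84458639 to 84476424). It ranged from 1.58 to 6.74 CPM (median 2.24) at 3 months and from 0 to 0.647 CPM (median 0.219) at 28 months. No old brain reached the lowest young one (-2.99 ± 0.19 on the log2 scale, adjusted p 1.5e-22). Ncan, a proteoglycan of the brain's extracellular matrix, went from 215 to 266 CPM (median 242) down to 144 to 201 CPM (median 171), also without overlap. The RNA-binding protein genes Rbm28 (-0.48 ± 0.05) and Mettl16 (-0.37 ± 0.04), an RNA methyltransferase, fell, as did the long non-coding RNA Dubr (-0.57 ± 0.06) and Dpysl3 (-0.44 ± 0.05), which guides growing axons. Tnfrsf25, a death-domain receptor of the tumour necrosis factor family, changed by -1.07 ± 0.15, and the uncharacterised Gm14569 by -1.1 ± 0.15. Among low-level increases, the non-coding AA414992 (chromosome 13, 68181294 to 68182869) ranged from 0.0868 to 0.881 CPM at 3 months and from 1.09 to 2.67 CPM at 28 months. Its groups did not overlap either (log2 fold change 2.41 ± 0.25, adjusted p 2.2e-12).

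**Figure D1:**
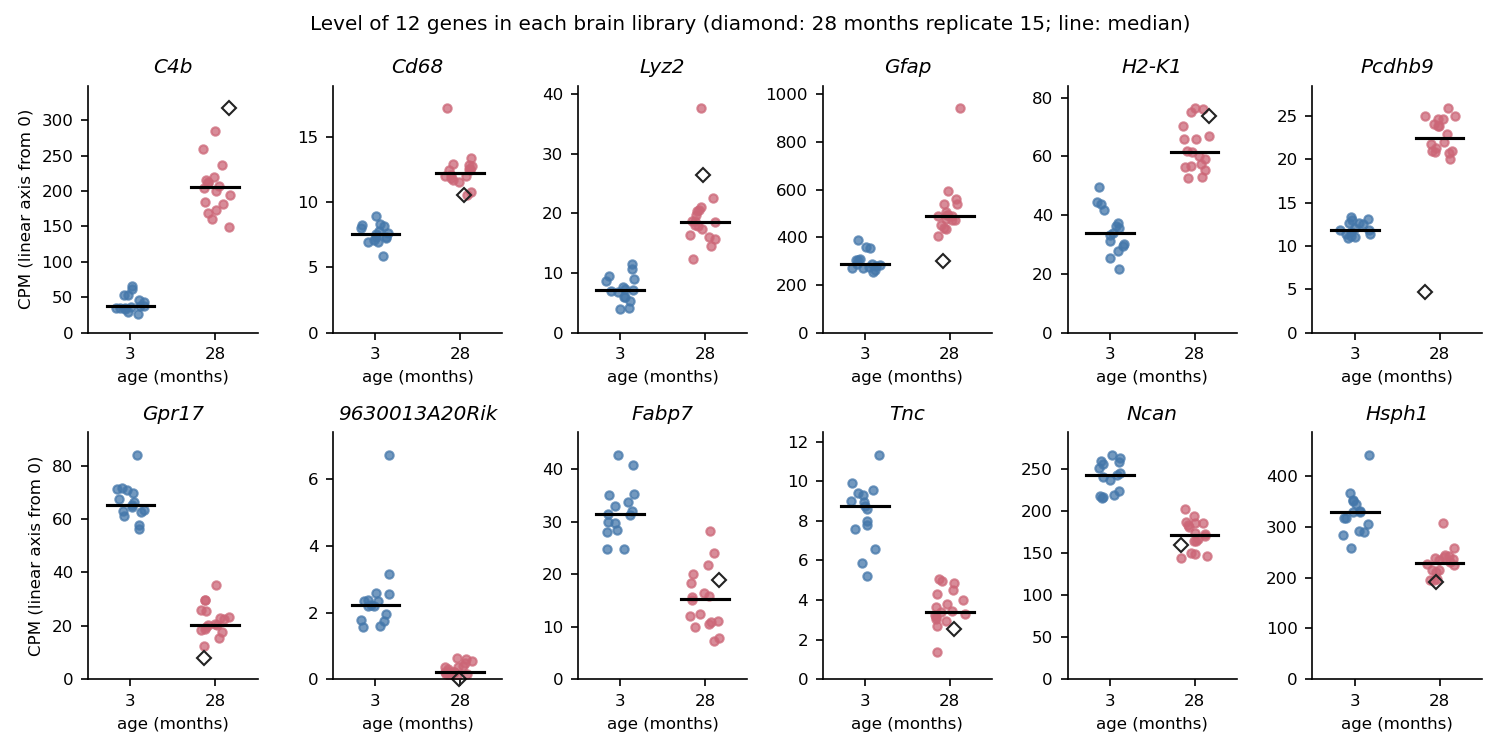
Level in CPM of 12 genes (linear axes from 0) in each of 15 brains of 3 months and 18 of 28 months. Points are libraries, lines are medians and the diamond is 28 months replicate 15. In C4b, Cd68, Lyz2, H2-K1, Gpr17, 9630013A20Rik, Tnc and Ncan the groups do not overlap, and the diamond departs from its group most in Pcdhb9, where it lies at 4.71 CPM.

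Most genes that load and present peptides on class I molecules were higher. Of 20 tested, 18 were higher and 0 lower (17 and 0 without replicate 15), with a median log2 fold change of 0.71 (0.62 without it), against 0.01 over all genes. H2-K1, the classical class I heavy chain, ranged from 21.8 to 49.4 CPM (median 33.9) at 3 months and from 52.5 to 76.3 CPM (median 61.6) at 28 months. The groups did not overlap, and the log2 fold change was 0.88 ± 0.11 (adjusted p 1.3e-09). H2-D1, another classical heavy chain, changed by 0.83 ± 0.10 (adjusted p 2.2e-10). The non-classical H2-Q6 went from 1.1 to 4.72 CPM (median 2.31) to 5.12 to 14.3 CPM (median 9.24), a log2 fold change of 1.94 ± 0.22, and H2-Q7 changed by 1.79 ± 0.22. Class I heavy chains are close copies of each other, so the share of each is uncertain. B2m, the light chain that all of them share, does not have that limit. It ranged from 55.7 to 94.2 CPM (median 73.4) and from 91.2 to 168 CPM (median 106), so that 15 of 18 old brains lay above all young ones (0.58 ± 0.09, adjusted p 2.3e-07). Of 10 class II genes, which present peptides to helper T cells, 5 were higher and 0 lower (4 and 0 without replicate 15). They were H2-DMa, H2-DMb1, H2-DMb2, H2-Oa and H2-Ob, of which H2-DMa was the one lost. H2-DMb1, a class II peptide editor, changed by 0.68 ± 0.12 (adjusted p 4.8e-06).

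Interferon-stimulated genes make antiviral proteins. Of 32 tested, 19 were higher and 1 lower (Cmpk2), or 23 and 0 without replicate 15, with a median of 0.46 in both fits. Promoters of 6 genes are printed as examples of the stretches that hold a motif, and of these genes H2-T22, Bst2, Ifit1, Ifit3 and Hspd1 were chosen after their values were seen. The first 5 hold the interferon-stimulated response element, searched on both strands as GAAA and GAAA with any 2 bases between them, in the 300 bases around each RefSeq start (250 before, 50 after, GRCm38.p6). Capitals mark matches, all windows lie upstream of the start and read 5′ to 3′ on the strand of the gene, and overlapping matches were merged.
B2m (chr2:122147533-122147572, plus strand): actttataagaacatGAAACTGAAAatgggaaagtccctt
H2-T22 (chr17:36042909-36042948, minus strand): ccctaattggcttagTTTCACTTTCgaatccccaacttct
Bst2 (chr8:71537572-71537617, minus strand): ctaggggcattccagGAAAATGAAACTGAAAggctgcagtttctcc
Ifit1 (chr19:34640770-34640828, plus strand): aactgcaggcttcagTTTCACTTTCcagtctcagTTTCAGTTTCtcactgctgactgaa
Ifit3 (chr19:34583358-34583431, plus strand): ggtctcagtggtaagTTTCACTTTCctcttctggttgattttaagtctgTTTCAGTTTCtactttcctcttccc

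That motif stood in 3.99% of all 27025 promoters in the table and in 3.69% of the 12933 that belong to tested genes. It was in 93 of 1691 promoters of genes called higher with and without replicate 15 (5.50%) and in 44 of 1470 of genes called lower (2.99%). Among the interferon-stimulated genes with a promoter in the table it was in 12 of 22, and among the class I genes in 5 of 17. All 9 promoters found for the interferon-gamma inducible GTPases held it. A second motif of the same response, TTCNNNGAA, was in 9.55% of all promoters, in 8.28% of those of tested genes, in 9.64% of those of genes called higher and in 8.03% of those of genes called lower. A match in these letters is a description of the sequence and not of binding.

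Bst2, a membrane tether that holds back budding viruses, ranged from 2.1 to 6.81 CPM (median 3.61) at 3 months and from 3.02 to 21.7 CPM (median 5.25) at 28 months. Ifit3, which binds viral RNA complexes, ranged from 3.33 to 17.9 CPM (median 5.09) and from 6.45 to 26.1 CPM (median 10.7). The ages overlapped for both, and only 3 and 1 old brains lay above every young one, with log2 fold changes of 0.80 ± 0.20 (adjusted p 0.0017) and 0.81 ± 0.17 (adjusted p 0.0001). Ifit1 changed by 0.61 ± 0.18 (adjusted p 0.0082). With the clock score as a term and replicate 15 left out, a fit chosen after the data were seen, its adjusted p was 0.088. The class I gene H2-T22 changed by 0.29 ± 0.06. Named by rule, Lgals3bp (0.79 ± 0.14), Rtp4 (0.62 ± 0.12), Xaf1 (0.59 ± 0.10), Trim30a (0.58 ± 0.12) and Ifi27 (0.50 ± 0.14) rose, with adjusted p of at most 0.0041. Without replicate 15 the change of Ifi27 was 0.29 (adjusted p 0.020). Lgals3bp, a secreted scavenger ligand, spanned 23 to 81.8 CPM at 28 months, and its highest value was that of replicate 14. Interferon-gamma inducible GTPases attack the vacuoles of intracellular pathogens. Of 14 tested, 2 were higher (Gbp6 and Irgm1) and 0 lower with replicate 15, and 9 were higher and 0 lower without it. Over all tested genes 16.3% were higher with that library and 15.6% without it. Irgm1, which regulates that family, was at 1.61 CPM in replicate 15 and between 11.2 and 21.1 CPM in the other old brains, against 7.45 to 13.2 CPM at 3 months (0.47 ± 0.11, and adjusted p 5.5e-08 without replicate 15).

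Complement genes were higher in 12 of 21 cases and lower in 2, Cfp and Masp1 (13 and 2 without replicate 15), with a median of 0.57. C1qc, a chain of the recognition molecule of the classical pathway, ranged from 33.4 to 52.3 CPM (median 38.3) at 3 months and from 37.1 to 97.1 CPM (median 56.3) at 28 months. In 16 old brains it was above all young ones (0.61 ± 0.08, adjusted p 8.6e-09). C3ar1, the receptor for the C3a fragment, rose by 1.01 ± 0.09 (adjusted p 8.1e-15), and Itgb2, the shared chain of the leukocyte integrins, by 0.66 ± 0.08 (adjusted p 3.7e-10).

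Microglia have a state described around plaques and in degenerating tissue, and 30 genes of that disease-associated state were tested. Of these 23 were higher and 0 lower in both fits, with a median of 0.59 (0.51 without replicate 15). Clec7a, a receptor for fungal glucans, ranged from 0.118 to 0.742 CPM (median 0.425) at 3 months and from 0.345 to 6.30 CPM (median 2.11) at 28 months. The single old brain within the young range was replicate 15, and the log2 fold change was 2.37 ± 0.19 (adjusted p 1.1e-16). The Fc receptor gene Fcgr3 changed by 0.57 ± 0.07. Fth1, the ferritin heavy chain, changed by 0.70 ± 0.17 with replicate 15, which stood at 14409 CPM, and by 0.34 without it.

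Of 18 genes of resting microglia 10 were higher and 2 lower (13 and 2 without replicate 15), with a median of 0.20. Cx3cr1, the fractalkine receptor, ranged from 50.7 to 61.9 CPM (median 55.4) at 3 months and from 50.8 to 104 CPM (median 69.6) at 28 months. It changed by 0.34 ± 0.05 (adjusted p 6.7e-07). The growth factor receptor gene Csf1r changed by 0.13 ± 0.04 (adjusted p 0.018). The lower genes were Olfml3 and Fcrls, an Fc receptor-like gene of resting microglia. Fcrls fell from 4.57 to 6.26 CPM (median 5.38) to 1.05 to 4.52 CPM (median 2.59), and no old brain reached a young one (-1.08 ± 0.11, adjusted p 4.8e-13). The summed level of the 18 genes was 499 to 612 CPM at 3 months and 539 to 939 CPM at 28 months, and its part in the changes of the other microglial lists was not tested. Lysosomal genes were higher in 18 of 30 cases and lower in 0, with a small median of 0.14. Ctss, the cathepsin of antigen processing, changed by 0.62 ± 0.07 and Man2b1, a mannosidase, by 0.30 ± 0.05. Psap, the saposin precursor, was called with replicate 15 (0.13 ± 0.04, adjusted p 0.021) and missed the threshold without it (0.09, adjusted p 0.057). The motif TCACGTGA of lysosomal genes, searched as above, was in 3 of 24 promoters of this list, in 1.87% of those of tested genes and in 1.12% of all promoters. Its longer form, with G before and C after it, was in 0 of the 24 and in 0.642% of those of tested genes.

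**Figure D2:**
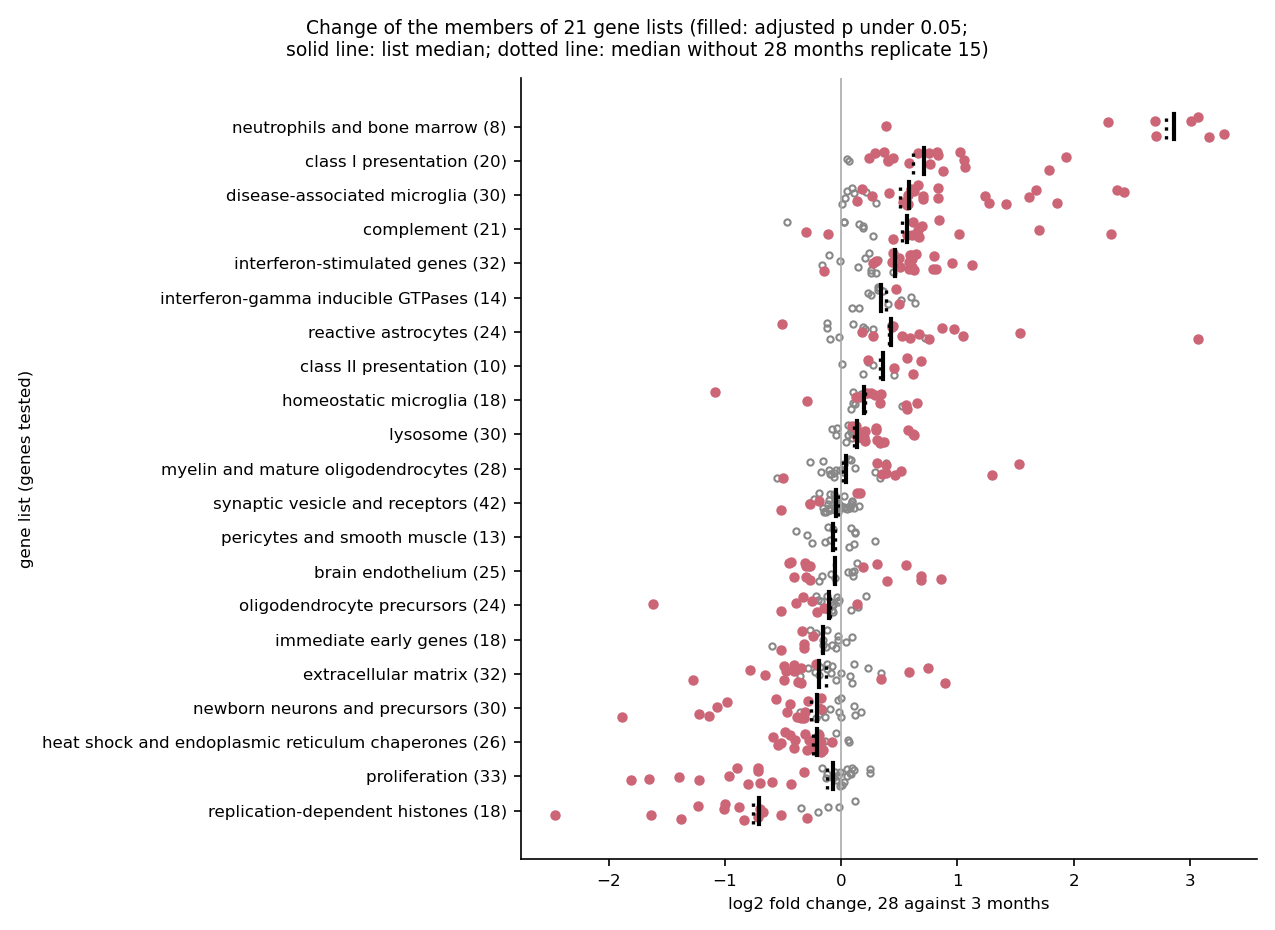
Log2 fold change of 28 against 3 months for each tested member of 21 gene lists, with the number tested in brackets. Filled points passed an adjusted p under 0.05, solid lines are list medians and dotted lines medians without 28 months replicate 15. Neutrophil genes have the highest median (2.86) and the replication-dependent histones the lowest (-0.71).

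Reactive astrocyte genes were higher in 13 of 24 cases and lower in 1, Hspb1 (15 and 1 without replicate 15), with a median of 0.43. Gfap, the intermediate filament of astrocytes, ranged from 253 to 387 CPM (median 287) at 3 months and from 302 to 941 CPM (median 490) at 28 months. Replicate 15 was the lowest old brain and the other 17 lay above all young ones (0.75 ± 0.08, adjusted p 1.6e-12). The asparaginase gene Aspg (1.05 ± 0.11), the elastic fibre gene Fbln5 (0.97 ± 0.13) and the galactosyltransferase gene Ggta1 (0.67 ± 0.07) rose as well. Resting astrocyte genes were divided, with 7 of 18 higher (5 without replicate 15) and 2 lower, Aqp4 and Gja1. S100b, a calcium-binding protein, changed by 0.55 ± 0.11 (0.37 without replicate 15), Aldoc, a glycolytic aldolase, by 0.33 ± 0.06 and the growth factor receptor gene Fgfr3 by 0.28 ± 0.05. Gja1, a gap junction protein gene, fell by 0.18 on the log2 scale (SE 0.04, adjusted p 0.0011).

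The extracellular matrix list fell more often than it rose, with 12 of 32 lower and 4 higher in both fits and a median of -0.19. Tnc, a matrix glycoprotein of developing tissue and of neural precursors, ranged from 5.21 to 11.3 CPM (median 8.77) and then from 1.36 to 5.04 CPM (median 3.40). The groups did not overlap (-1.22 ± 0.11, adjusted p 4.4e-14). The fibrillar collagen gene Col3a1 changed by -1.27 ± 0.22. The members that rose were Col6a2, Col5a3 (0.74 ± 0.11), Sparc, a collagen-binding glycoprotein (0.59 ± 0.08), and Hapln2, a link protein at the nodes of myelinated axons (0.89 ± 0.14). The list of meninges and fibroblasts, which share these collagens, had 0 of 11 genes higher and 1 lower (Lum). Its summed level was 212 to 902 CPM at 3 months and 246 to 1024 CPM at 28 months without replicate 15, and the part of that tissue in the matrix list was not tested.

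Oligodendrocyte precursor genes were lower in 7 of 24 cases and higher in 1 (Itpr2), or 9 and 0 without replicate 15, with a median of -0.10. Beside Gpr17, the sialidase gene Neu4 went from 11.0 to 16.7 CPM (median 12.0) to 8.09 to 11.5 CPM (median 9.10), a log2 fold change of -0.39 ± 0.05 (adjusted p 3.1e-08), and the matrix gene Tnr changed by -0.32 ± 0.10. Of 28 genes of myelin and mature oligodendrocytes 8 were higher and 1 lower (Ugt8a), with a median of 0.04, or 9 and 1 without replicate 15, with a median of 0.01. Apod, a lipid carrier, ranged from 57.6 to 180 CPM (median 115) at 3 months and from 147 to 760 CPM (median 221) at 28 months. It changed by 1.30 ± 0.15 (1.13 without replicate 15, its highest value). Klk6, a myelin-associated protease, changed by 1.53 ± 0.31, Trf, the iron carrier transferrin, by 0.47 ± 0.11 and the alarmin gene Il33 by 0.39 ± 0.09. Mbp, the most abundant member, had overlapping ranges of 1055 to 4973 CPM and 1631 to 4993 CPM, and its change of 0.29 ± 0.13 missed the threshold (adjusted p 0.075).

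Genes of newborn neurons and their precursors were lower in 15 of 30 cases and higher in 0 in both fits (median -0.20, and -0.26 without replicate 15). Fabp7, a fatty acid binding protein of radial glia and neural stem cells, ranged from 24.8 to 42.7 CPM (median 31.4) and then from 7.26 to 28.2 CPM (median 15.3). In 17 of 18 old brains it was below every young one (-1.07 ± 0.12, adjusted p 2.4e-11). The transcription factor gene Sox4 changed by -0.47 ± 0.07. Proliferation genes were lower in 13 of 33 cases and higher in 0 (without replicate 15 also 2 higher, Pcna and Hells). Rrm2, a subunit of the enzyme that makes deoxynucleotides, went from 1.42 to 2.08 CPM (median 1.79) to 0.656 to 1.37 CPM (median 1.1), with no overlap (-0.70 ± 0.09, adjusted p 4.8e-09). The mitotic motor gene Kif11 (-0.72 ± 0.12), the methylation maintenance gene Uhrf1 (-0.72 ± 0.12) and the replicative helicase gene Mcm6 (-0.32 ± 0.07) fell too. Pcna, the polymerase clamp, had a change of 0.07 ± 0.05 (adjusted p 0.31) with replicate 15 and of 0.12 (adjusted p 0.015) without it.

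Replication-dependent histone genes had the lowest median of the plotted lists. Of the 71 such genes that the authors counted, 18 passed the filter on low counts, and 13 of these were lower and 0 higher in both fits, with medians of -0.71 and -0.76. Hist1h2be ranged from 3.5 to 11.0 CPM (median 5.16) and then from 1.62 to 4.82 CPM (median 2.61), a log2 fold change of -1.0 ± 0.12 (adjusted p 2.6e-10). Hist1h4i changed by -1.01 ± 0.15, the linker histone gene Hist1h1c by -0.71 ± 0.12 and Hist3h2a by -0.51 ± 0.10. These transcripts mostly lack a poly(A) tail, so a polyA library holds only a part of them. Histone copies are near-identical, Hist1h2be overlaps Hist1h1e and Hist3h2a overlaps Trim17 on the same strand, so single values are uncertain.

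Chaperones fold proteins in the cytosol, the mitochondria and the endoplasmic reticulum, and most of this list fell. Of 26 tested, 20 were lower and 0 higher (22 and 0 without replicate 15), with a median of -0.21 (-0.24). Hsph1, a nucleotide exchange factor of the Hsp70 system, ranged from 258 to 441 CPM (median 330) and then from 191 to 308 CPM (median 228). In 17 old brains it was below every young one (-0.52 ± 0.05, adjusted p 2.7e-12). The co-chaperone genes Chordc1 (-0.44 ± 0.07) and Stip1 (-0.31 ± 0.04) and the disulfide isomerase gene Pdia4 of the endoplasmic reticulum (-0.55 ± 0.09) fell. Hspd1, the mitochondrial chaperonin, went from 137 to 187 CPM (median 158) to 120 to 201 CPM (median 138), with a change of -0.16 ± 0.04 (adjusted p 0.0035). Its highest old value was that of replicate 15. The region it shares with Hspe1 on the opposite strand holds the heat shock element, searched on both strands as GAA, TTC and GAA in a row with any 2 bases between them, a motif added after the values were seen. Capitals mark 2 overlapping matches.
Hspd1 (chr1:55088044-55088091, minus strand): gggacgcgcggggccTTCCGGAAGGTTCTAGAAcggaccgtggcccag

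The element was in 4 of 20 promoters of the chaperone list, in 3 of the 15 whose genes were called lower with and without replicate 15, in 0.557% of those of tested genes and in 0.662% of all promoters. Hspd1 and Hspe1 are both counted though they share the printed stretch, and Hspe1 was not called in both fits. Over all genes it was in 14 of 1470 promoters of genes called lower and in 8 of 1691 of genes called higher. A pair of cold-inducible RNA-binding protein genes, chosen after their values were seen, moved the other way. Cirbp ranged from 39.9 to 85.0 CPM (median 60.4) and then from 77.0 to 196 CPM (median 104), a log2 fold change of 0.81 ± 0.09 (adjusted p 1.6e-10). Rbm3 ranged from 49.1 to 72.6 CPM at 3 months and from 74.7 to 123 CPM in 17 old brains, with replicate 15 at 4.59 CPM. Without that library its change was 0.68 (adjusted p 2.9e-16). Rbm3 overlaps Rbm3os on the opposite strand.

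Immediate early genes, which respond to neuronal activity within minutes, were lower in 5 of 18 cases (Arc, Fosl2, Jun, Egr3 and Nr4a2) and higher in 0 (median -0.16). Arc, a synaptic plasticity gene, changed by -0.52 ± 0.16 (adjusted p 0.0098), and the AP-1 subunit genes Fosl2 (-0.32 ± 0.08) and Jun (-0.32 ± 0.09) by less. With the clock score as a term and replicate 15 left out, Arc and Fosl2 had adjusted p of 0.11 and 0.13. Beside these and Ifit1, the calls of Hba-a1, Hbb-bs, Fth1, Psap, Tnr, Pvalb, Dbp, Acat2, Sc5d, Rpl3, Rpl39, Cox6a2, Lmnb1 and Gh ended in that fit. Glucocorticoid-responsive genes were higher in 9 of 15 cases and lower in 0 (8 and 0 without replicate 15), with a median of 0.35 (0.21). Plin4, a lipid droplet protein, ranged from 1.63 to 12.1 CPM (median 2.44) at 3 months and from 2.46 to 68.6 CPM (median 12.1) at 28 months. In 9 old brains it was above all young ones (2.08 ± 0.35, adjusted p 2.7e-06). The sulfotransferase gene Sult1a1 changed by 1.23 ± 0.19 (0.91 without replicate 15), the arrestin family gene Arrdc2 by 0.66 ± 0.13 and the NF-kappaB inhibitor gene Nfkbia by 0.45 ± 0.08. Plin4 overlaps Hdgfl2 and Sult1a1 overlaps Sgf29, each on the opposite strand. Clock genes were higher in 7 of 17 cases and lower in 2, Arntl and Nfil3 (10 and 2 without replicate 15). Ciart, a repressor in the clock, changed by 0.73 ± 0.10, Cry2 by 0.20 ± 0.03, Dbp, a clock output factor that overlaps Sphk2, by 0.43 ± 0.11 and Nfil3, its antagonist, by -0.53 ± 0.08. Since Dbp and Ciart were part of the clock score, the score cannot test them.

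Of 42 genes of synaptic vesicles and receptors, 2 were higher (Vamp2 and Nlgn3) and 3 lower (Unc13a, Shank2 and Homer1), with a median of -0.05. Without replicate 15 these were 2 (Vamp2 and Gad1) and 4, with a median of -0.02. Homer1, a postsynaptic scaffold with an activity-induced short form, ranged from 112 to 177 CPM (median 145) and then from 46.9 to 136 CPM (median 103). It changed by -0.51 ± 0.08 (adjusted p 1.7e-06). Unc13a, a vesicle priming gene that overlaps Colgalt1, changed by -0.27 ± 0.06. Of 24 neuropeptides and interneuron markers 3 were higher (Vip, Pvalb and Cort) and 1 lower (Pdyn), and without replicate 15 these were Pvalb and Pdyn alone. Both lists lay below the shares over all tested genes in each direction, 16.3% higher and 12.0% lower (15.6% and 13.7% without replicate 15). Pdyn, the precursor of dynorphin, fell by 0.53 on the log2 scale (SE 0.13, adjusted p 0.0013), while Pvalb changed by 0.79 ± 0.21 with and 0.36 without replicate 15, which stood at 241 CPM.

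Clustered protocadherins give single neurons their surface identity. Of 57 tested, 10 were higher and 4 lower (Pcdhac1, Pcdhgb2, Pcdhb18 and Pcdha12), or 16 and 4 without replicate 15, with medians of -0.12 and -0.06. Over all tested genes 16.3% were higher and 12.0% lower, and 15.6% and 13.7% without replicate 15, so that the list's share of higher genes was near the overall share with that library and above it without. Its share of lower genes was below the overall share in both fits. Pcdhb9, in the beta cluster on chromosome 18 (37400855 to 37403909), ranged from 10.9 to 13.3 CPM (median 11.9) at 3 months and from 20.1 to 25.9 CPM (median 22.9) in 17 old brains. Replicate 15, at 4.71 CPM, lay below all young brains. The log2 fold change was 0.87 ± 0.08, and 0.93 without that library (adjusted p 5.0e-31). Its medians at 9, 15 and 24 months were 15.8, 18.5 and 20.8 CPM. The neighbours Pcdhb3 (0.65 ± 0.09), Pcdhb6 (0.64 ± 0.12) and Pcdhb12 (0.30 ± 0.07) rose by less. These genes are close copies, so reads shared between them may have been lost or split.

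Brain endothelium moved in both directions, with 7 of 25 genes higher and 8 lower (7 and 9 without replicate 15). Icam1, an adhesion molecule for leukocytes, ranged from 1.73 to 3.65 CPM (median 2.76) and then from 3.10 to 8.52 CPM (median 4.66). It changed by 0.86 ± 0.14 (adjusted p 1.4e-06), and Edn1, the vasoconstrictor endothelin, by 0.68 ± 0.14. Itm2a (-0.44 ± 0.06), an endothelial membrane protein, and the receptor gene Tie1 (-0.40 ± 0.08) fell. Pericyte and smooth muscle genes gave 0 calls in 13 with edgeR in either fit, 2 at an unadjusted p under 0.05, 0 with DESeq2 and 1 with limma's voom. In cholesterol synthesis and uptake 7 of 20 genes were higher and 2 lower. Dhcr7 (-0.21 ± 0.05) and Sc5d (-0.22 ± 0.07), both late enzymes of the pathway, fell, and Acat2, an early thiolase, changed by 0.41 ± 0.10 with replicate 15 and 0.25 without it. Of 25 genes of senescence and secreted factors 16 passed the filter on low counts, and of these 8 were higher and 1 lower. That 1 was Lmnb1, the nuclear lamin whose loss is used as a senescence marker, at -0.25 ± 0.08.

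Ribosomal and respiratory genes differed between the fits with and without replicate 15. Of 79 cytosolic ribosomal protein genes 68 were higher and 0 lower with it, but 6 and 0 without it, and the median went from 0.48 to 0.12. Of 80 nuclear genes of oxidative phosphorylation 26 were higher with it and 3 without it (Cox6a2, Cox8b and Sdha), and the median went from 0.27 to 0.01. Rpl3 ranged from 393 to 497 CPM (median 429) at 3 months and from 441 to 605 CPM in the 17 other old brains, while replicate 15 stood at 3347 CPM. The change of Rpl3 was 0.57 ± 0.15 with and 0.20 without that library, and that of Rpl39 0.65 ± 0.17 and 0.33. Cox6a2, a muscle-type subunit of the last respiratory complex that overlaps Itgad, changed by 0.67 ± 0.18 and 0.43. Genes on the mitochondrial chromosome went the other way, with 1 of 13 higher with it (mt-Atp6) and 4 without (also mt-Nd1, mt-Nd5 and mt-Co1). There mt-Co1 stood at 1117 CPM in replicate 15 and between 12136 and 18754 CPM in the other old brains, against 11030 to 15328 CPM at 3 months. Its change was 0.14 ± 0.12 with (adjusted p 0.37) and 0.22 without the library (adjusted p 0.0025). The exons of mt-Atp6 overlap those of mt-Atp8 and mt-Co3, and it changed by 0.95 ± 0.26.

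**Figure D3:**
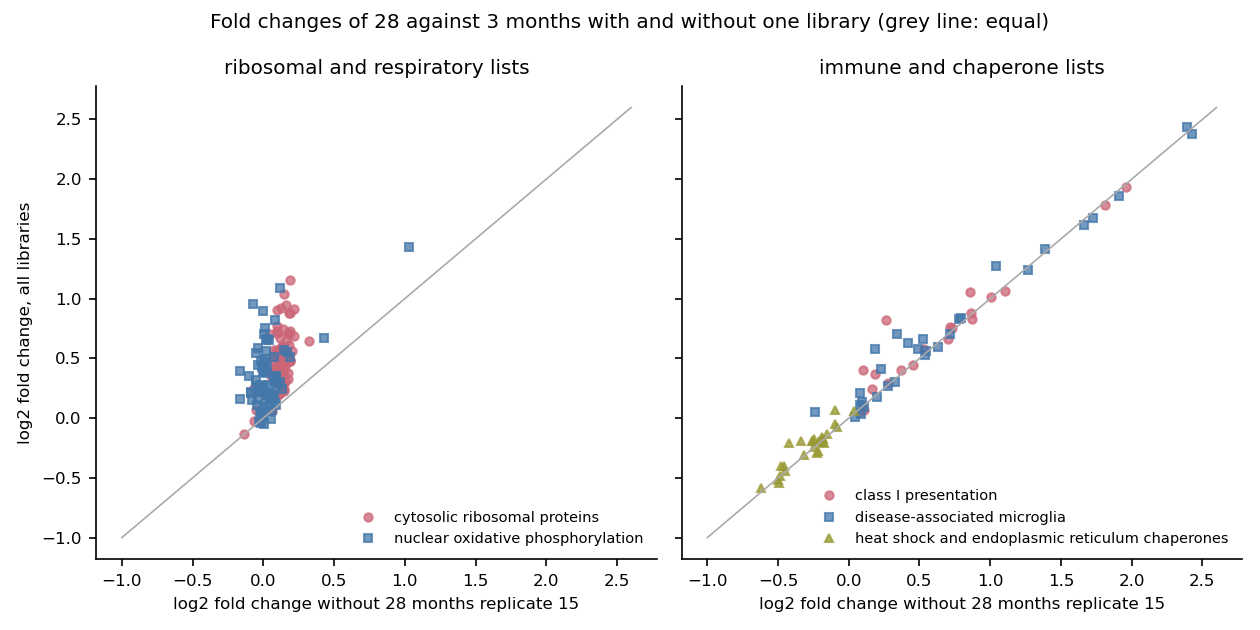
Log2 fold change of 28 against 3 months with all libraries (vertical axis) against the value without 28 months replicate 15 (horizontal axis), 1 point per gene, with a grey line of equality. Most ribosomal and respiratory genes lie above the line, with medians of 0.48 and 0.27 that become 0.12 and 0.01, whereas most class I, microglial and chaperone genes lie close to it.

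Markers of blood and of tissue that dissection can include were counted in the same way. Of 13 genes of neutrophils and bone marrow, 8 passed the filter on low counts, which a gene can pass through the libraries of 1 age alone. These 8 were all higher in both fits, with a median of 2.86. Genes low at both ages could not enter, so the count and the median hold only for the genes kept. S100a8, a granule protein of neutrophils, ranged from 0.0289 to 1.17 CPM (median 0.25) at 3 months and from 0.610 to 11.8 CPM (median 2.26) at 28 months, so that 17 of 18 old brains lay above all young ones. The gelatinase gene Mmp9 changed by 0.39 ± 0.08. The other defining genes S100a9 (3.01 ± 0.39) and Lcn2 (3.07 ± 0.48) rose as well, and reactive astrocytes can also express Lcn2. The summed level of the 8 genes was 1.76 to 7.16 CPM at 3 months and 4.06 to 52.6 CPM at 28 months. Red blood cell genes were higher in 4 of 6 cases (Hba-a1, Hbb-bs, Alas2 and Slc4a1) and lower in 0. Their sum was 30.1 to 234 CPM at 3 months and 34.5 to 312 CPM at 28 months without replicate 15, which held 726 CPM. Hba-a1 changed by 1.19 ± 0.33 (0.77 without replicate 15), Hbb-bs by 1.07 ± 0.31 and Alas2, which overlaps Apex2, by 0.90 ± 0.30, and the globin genes are close copies. The part of blood left in the vessels in the neutrophil result was not tested.

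The filter on low counts kept 9 of 13 B lineage genes, 6 of 17 T cell and cytotoxic genes and 5 of 9 hypothalamus genes. The others could not be called. B lineage genes gave 1 higher of 9 (Cd79b), and T cell and cytotoxic genes 0 of 6 with edgeR, where 2 had an unadjusted p under 0.05. DESeq2 called 1 of these and limma's voom 2, and without replicate 15 edgeR called 1, Itgal. Choroid plexus (12 genes), ependyma (10) and hypothalamus (5) gave 0 calls each with edgeR, DESeq2 and limma's voom, and with edgeR 1, 0 and 0 genes had an unadjusted p under 0.05. Striatum gave 0 higher and 1 lower (Adora2a) of 10, or 0 and 3 without replicate 15 (also Drd2 and Rgs9), and olfactory bulb 0 and 1 (Eomes) of 7. Over all tested genes 16.3% were higher and 12.0% lower, and 15.6% and 13.7% without replicate 15. A single call in a list of 7 to 10 genes is near or below those shares. Genes given without values here and above, as the members behind a small count, were named after their values were seen. Choroid plexus sums spanned 52.4 to 6805 CPM at 3 months and 50.1 to 5592 CPM at 28 months. The 2 tested pituitary genes, Gh and Pomc, were both lower. Gh, pituitary growth hormone, had medians of 0.022 and 0 CPM and reached 495 CPM in a 3-month brain and 3.55 CPM in a 28-month brain, with a fitted change of -6.13 ± 1.61. Of 9 cerebellar genes 1 was higher, Cbln3, a granule cell synapse organiser. In replicate 14 it and Cnpy1, another cerebellar gene, stood at 101 and 29.6 CPM, and without that library their changes lost the call, at 0.12 (adjusted p 0.90) and 0.02 (adjusted p 0.99).

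The old brains differed among themselves. A list score, the mean over members of log2(CPM + 0.5) minus its 3-month mean, was taken for each brain as a description. Scores of all 18 old brains lay above those of all 15 young ones for class I, complement and disease-associated microglia, and below them for newborn neurons and precursors. Class I scores ran from 0.42 to 1.01 at 28 months and from -0.37 to 0.29 at 3 months. Microglial scores were highest in replicate 8 (disease-associated 1.01, resting 0.73). It also had the highest myelin score of the old brains (0.92), where 3-month scores reached 1.16. Interferon-stimulated scores spread from -0.04 in replicate 10 to 1.28 in replicate 14, followed by 0.72 in replicate 2, with 3-month scores of -0.45 to 0.64, so that only 2 old brains lay above the young range. Replicate 14 was also the old brain with the highest cerebellar score (2.38) and the second highest choroid plexus score (2.8). At 3 months these scores reached 0.56 and 4.02. Replicate 2 had the highest neutrophil (2.8) and B lineage (1.28) scores, with a red blood cell score of 1.77. At 3 months these scores reached 0.59, 1.1 and 1.43. Replicate 17 was highest for glucocorticoid-responsive genes (1.07), reactive astrocytes (0.67) and complement (0.58). Replicate 10 was lowest for neutrophil (0.10), reactive astrocyte (0.11), complement (0.23) and glucocorticoid-responsive genes (-0.17). Of these brains replicates 8, 10, 14 and 17 were in prep 2, which held 5 old brains, and replicate 2 was in prep 1. When scores were taken against the young brains of the same prep, each brain named here kept its place as highest, second highest or lowest. Interferon-stimulated scores were then above all young brains of their own prep in 9 old brains, with replicate 14 at 1.24, replicate 2 at 0.84 and replicate 10 at -0.083.

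**Figure D4:**
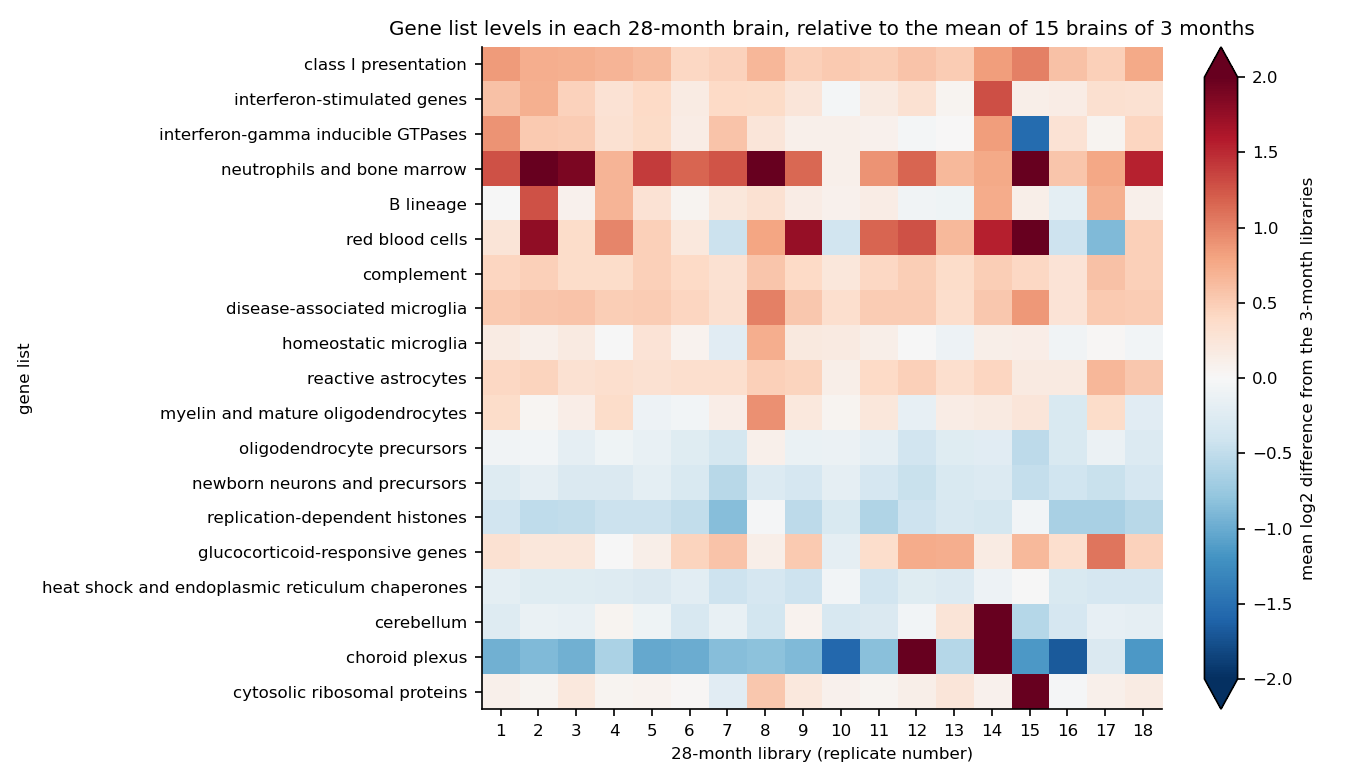
Score of 19 gene lists (rows) in each of the 18 brains of 28 months (columns), as the mean log2 difference from the 15 brains of 3 months, with a colour scale that saturates at 2 in either direction. Class I, complement and disease-associated microglial rows are above 0 in every column and the newborn neuron row is below 0, while interferon-stimulated (highest 1.28), neutrophil and cerebellar rows differ between mice.

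The step from 24 to 28 months was tested in the same fit, and it shares the 28-month libraries with the main comparison. It gave 99 genes higher (0.529%) and 105 lower (0.561%), 1.09% of the genes tested, of which 89 and 105 also passed without replicate 15. Replicate 13 of 24 months stood apart in the same way, with 19.7 M counts, a mean correlation of 0.956 with the other brains and a slope of -0.364 on the log2 scale per doubling of exon length. Without it, a fit chosen after the data were seen, 309 genes were higher and 199 lower, and 331 and 338 without both libraries. The step genes given below with a change were called in each of these fits, apart from Rrm2, AA414992 and H2-K1, whose step missed the threshold with all libraries. Plin4 rose by 1.69 on the log2 scale in this step (adjusted p 0.0021), from a median of 3.95 CPM at 24 months. Clec7a changed by 0.83, Sult1a1 by 0.79 (0.47 without 28 months replicate 15), Apod by 0.69, C4b by 0.68 and Ciart by 0.53. In the other direction Fabp7 changed by -0.74 (adjusted p 6.5e-05), and its medians had been 28.6, 28.6 and 24.3 CPM at 9, 15 and 24 months. Hist1h4i (-0.57), Hist1h2be (-0.53), Gpr17 (-0.51), Fcrls (-0.49), Tnc (-0.43), Rbm28 (-0.26), Hsph1 (-0.24) and Ncan (-0.22) were lower at 28 than at 24 months. Rrm2 had medians of 1.32, 1.30 and 0.965 CPM at 9, 15 and 24 months and a step of 0.04 (adjusted p 0.93). AA414992 had a step of -0.14 (adjusted p 0.85) after medians of 0.421, 1.08 and 1.94 CPM. For H2-K1 the step was 0.15 (adjusted p 0.59).

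**Figure D5:**
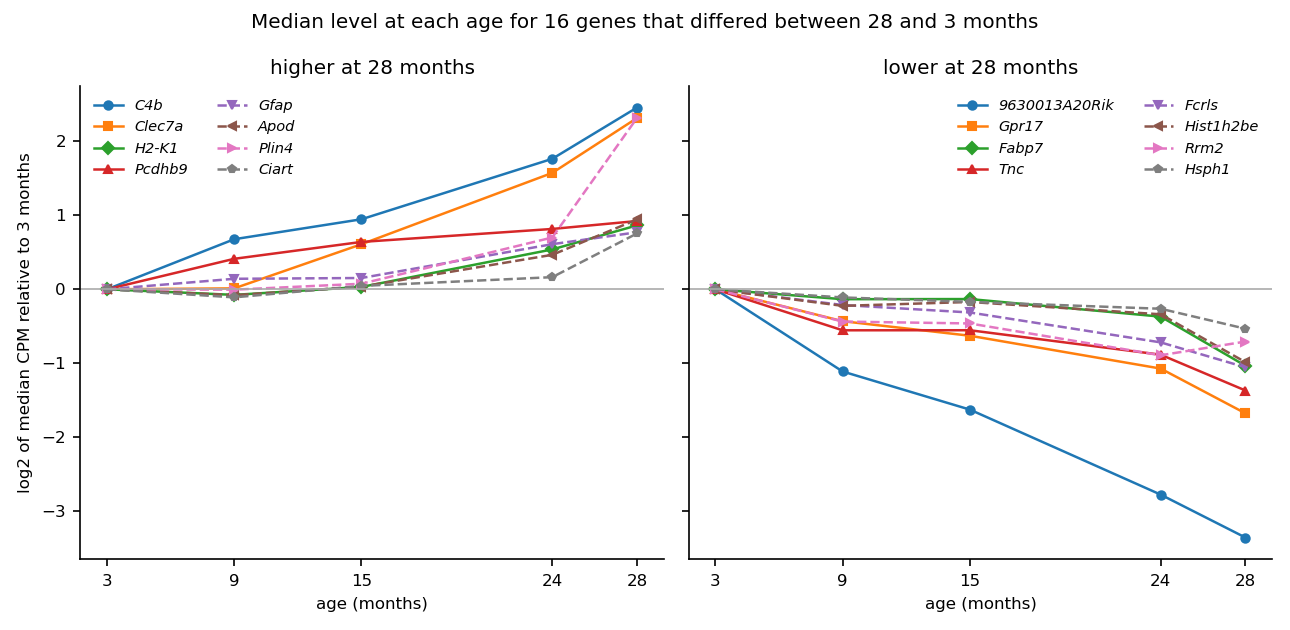
Log2 ratio of the median CPM at each age to that at 3 months for 16 genes, 8 higher and 8 lower at 28 months, with age in months on the horizontal axis. C4b, Pcdhb9, Gpr17 and 9630013A20Rik depart from 0 by 9 months. Plin4, Ciart, Fabp7 and Hist1h2be each move more between 24 and 28 months than over any other interval of their own course.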

How the data were processed

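QIAzol and chloroform were used to extract RNA from brain, and stranded polyA libraries were sequenced as paired-end reads, per the labels' protocols. The authors deposited raw counts per gene, and the submitters' processing notes name cutadapt 2.8, HISAT2 2.1.0, SAMtools 1.9, featureCounts in Subread 2.0.1 and the mouse build GRCm38. The strand setting of the counting is not given in the sources used here, so genes that overlap on opposite strands may share reads.

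Groups, mice and preps came from the labels. Counts of all 82 brain libraries were fitted with edgeR 4.0.16 in R 4.3.3, with age and prep as terms, after edgeR's filter on low counts and TMM scaling. Genes with a Benjamini-Hochberg adjusted p under 0.05 over all 18711 genes were called. The SE of each change was taken from its size and its F statistic. The p-values measure the spread between mice as labelled. The script was checked on simulated counts with a common spread for all genes, no prep effect and no biased library. That tests the code and not the calls made here. DESeq2 1.42.0 and limma 3.58.1 (voom with quality weights) were alternatives.

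Genes were named by rule from the 3567 that were called in the same direction with and without replicate 15, averaged at least 1 CPM and moved alike in each prep. They were the 8 highest and 8 lowest fold changes, the 8 smallest p-values in each direction at 10 CPM or more, up to 4 genes per list by p-value (where none met the conditions, as for the pituitary list, the 2 tested members with the smallest p), and the most abundant member of each list. Not all of them are printed, and a few are not reported here. The comparison, the 42 lists and the rule were chosen with earlier results of these data known. The sequences are from RefSeq, and the liver libraries were not used here.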

Additional observations from a re-analysis of the deposited data

How the results depend on the processing

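The counts of 3054 genes higher and 2237 lower at 28 than at 3 months became 1788 and 1271 with only the 33 libraries in the fit, 1180 and 807 in prep 1 alone, 258 and 110 in prep 2 alone and 824 and 381 in prep 3 alone. In prep 3 without replicate 15, a fit chosen after seeing the data, they were 1702 and 1393. Voom with quality weights gave 3811 and 3772. Leaving out each of the 33 libraries of 3 and 28 months in turn gave 2703 to 3312 higher and 1960 to 2571 lower genes. The 99 genes higher and 105 lower at 28 than at 24 months became 246 and 179 with DESeq2 and 251 and 274 without replicate 15. They became 445 and 535 with voom and 1719 and 2308 with the clock score as a covariate, both chosen after seeing the data, and 75 and 120 with that covariate and without replicate 15, whose clock score was 2.70 (at most 1.02 in the other 32 libraries). Also chosen later, leaving out 24 months replicate 13 gave 309 and 199, and 331 and 338 with replicate 15 left out as well. Against 3 months these were 3453 and 2434, and 3265 and 3101. For these counts the cause was not tested. Replicate numbers name different mice at the 2 ages. The 15 pairs of equal number had correlations of -0.38 to 0.38 (5 over 0.1). Only 1 library of 28 months correlated best with the young library of its own number. These values cannot show that nothing is shared within a number. With the number as a replicate block, 2615 genes were higher and 2224 lower against 3 months, and 88 and 101 against 24 months.

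Of 127 genes examined by name 124 were called. Of these, 119 lost the call in none of RLE scaling, DESeq2, voom, no filter, a stricter filter, no prep term and the block, counting as kept the 6 to which DESeq2 gave no adjusted p and the 2 that the stricter filter left out. With only the 33 libraries 7 lost it, in preps 1, 2 and 3 alone 33, 77 and 46, and without replicates 14 and 15 together 9. With the clock covariate 22 lost it, not counting Rpl3, whose sign turned there. Leaving out each of the 33 libraries compared, in turn, ended 3 calls, those of Cnpy1, Cbln3 and Psap. Many named genes were chosen because they were called with and without replicate 15 and moved alike in each prep. For those genes, keeping the call without replicate 15 or the direction in a prep is no test, since the choice fixed it. Over all tested genes, 811 of the 5291 called passed only with replicate 15. The sign turned for Ifit1 in prep 3 alone without replicate 15 (-0.064), for Rpl3 with the clock covariate (-0.078) and for mt-Co1, which was not called, in prep 3 alone (-0.062), and the cause was not tested. With the clock covariate and without replicate 15, 17 genes lost the call (adjusted p 0.059 for Hbb-bs to 0.98 for Dbp, which is part of the score). A list median counted as moved if it shifted by more than 1 SD of that list's scores in the old brains without replicate 15. Of the 42 medians, 0 moved with RLE scaling, 1 with DESeq2 and 3 with voom. In preps 1, 2 and 3 alone 13, 10 and 15 moved. With the clock covariate 13 moved, and 11 when replicate 15 was left out as well. Replicate 15 held 11.5 M counts, so a floor of 3 counts is a higher CPM there than in the other libraries.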
